A study of Mus musculus with 6 samples.

Results

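The D cyclins, the kinases Cdk4 and Cdk6 and the inhibitors that hold these kinases back were followed in hematopoietic stem and progenitor cells (HSPCs) of the mouse after transformation with MLL-AF9. The members were the 10 genes Ccnd1, Ccnd2, Ccnd3, Cdk4, Cdk6, Cdkn1a, Cdkn1b, Cdkn2a, Cdkn2c and Cdkn2d. They were picked by symbol from the 23337 genes of the deposited count table, with earlier results of these data known. All 10 passed the filter on low counts that left 12477 genes for testing. The study set 3 RNA libraries of cells kept in pro-lymphoid culture (replicates 1, 5 and 6) against 3 libraries of cells kept in pro-myeloid culture (replicates 2, 3 and 4), to ask which transcripts differ between the culture conditions. MLL-AF9 is a fusion oncogene of acute leukemia. Both groups carry it, so untransformed cells are not part of the comparison. The mouse strain, the age of the donors, the makeup of the media, the time in culture and whether the transformed cells came from 1 or several clones are not known from the labels. Nothing in the labels ties the libraries to separate cultures, mice or clones. The p-values therefore reflect only how much these 6 libraries vary, which could be technical variation.

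D cyclins are made in response to growth signals and bind Cdk4 or Cdk6. The active complexes phosphorylate the retinoblastoma protein and its relatives, which releases E2F transcription factors and lets a cell pass from G1 into S phase. INK4 proteins (from Cdkn2a, Cdkn2c and Cdkn2d) bind the kinases and block cyclin D binding, whereas CIP/KIP proteins (p21 from Cdkn1a and p27 from Cdkn1b) bind cyclin and kinase together. In blood, Cdk6 is prominent in stem and progenitor cells, and its gene is a target of MLL fusion proteins in acute leukemia.

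Of the 10 genes, 8 differed between the conditions in edgeR's quasi-likelihood test with Benjamini-Hochberg adjustment (adjusted p under 0.05), against 37.4% of all genes tested. Ccnd1, Ccnd2 and Cdk4 were higher in pro-lymphoid culture, a direction taken by 16.8% of all genes. Cdk6, Cdkn1b, Cdkn2a, Cdkn2c and Cdkn2d were lower there, a direction taken by 20.6% of all genes. Ccnd3 and Cdkn1a did not pass. The pro-lymphoid and pro-myeloid libraries did not overlap for the 8 genes called, and such a separation held for 53.6% of all genes tested (26.4% higher and 27.2% lower in pro-lymphoid culture). The median log2 fold change of the 10 genes, pro-lymphoid minus pro-myeloid, was -0.66, against a median of 0 over all genes. The values of the genes ran from -3.23 to 6.16, so the median does not stand for the set. Of the 8 calls, 4 also reached a 2-fold difference (Ccnd1, Ccnd2, Cdk6 and Cdkn2a), as did 20.3% of all genes.

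**Figure D1:**
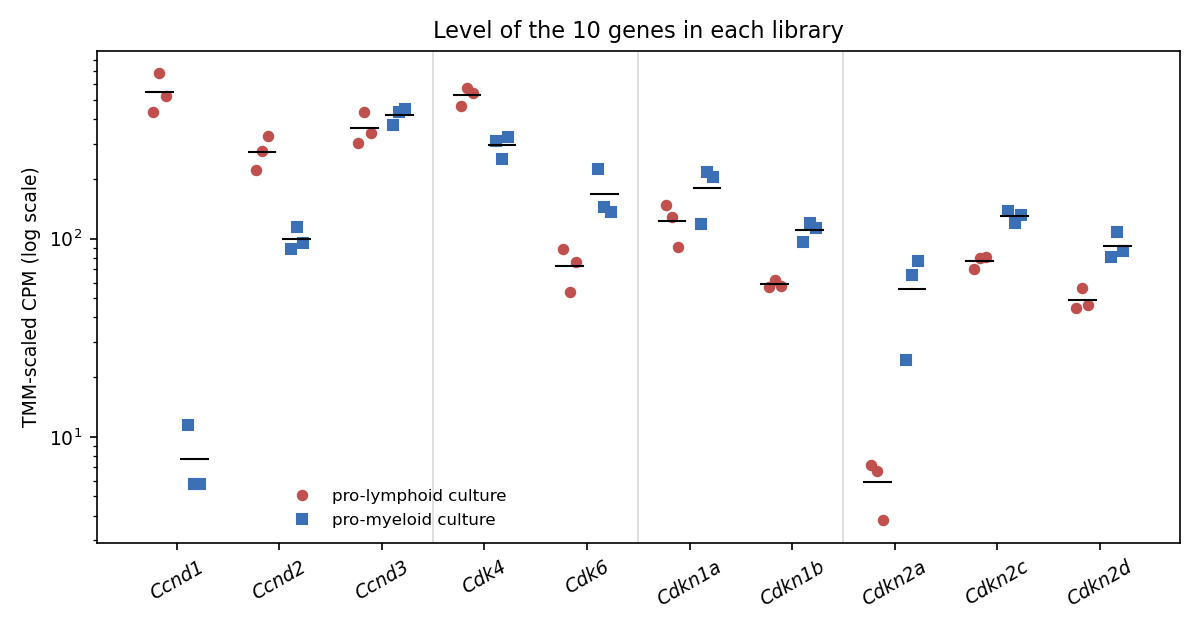
Level of the 10 genes in each library, in TMM-scaled CPM (read counts relative to library size) on a log axis, with 3 pro-lymphoid libraries as circles on the left of each pair, 3 pro-myeloid libraries as squares on the right, and a bar at each mean. Ccnd1 stands at 434 to 684 CPM in pro-lymphoid and at 5.77 to 11.5 CPM in pro-myeloid libraries, and Ccnd3 and Cdkn1a are the genes whose groups overlap.

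The libraries held 34972488 to 43304095 counts in pro-lymphoid culture and 35162603 to 46724382 in pro-myeloid culture, so that 3 counts in a library correspond to 0.0642 to 0.0858 CPM. Each of the 10 genes had at least 163 counts in every library. The first principal component of the log2 CPM values (82.4% of the variance) parted the conditions. Pro-myeloid replicate 2 stood away from pro-myeloid replicates 3 and 4 on the second (7.42%), at 54.68 against -32.38 and -20.98. The 7 HSPC markers were tested and moved both ways, with 3 higher in pro-lymphoid culture and 3 lower. Kit (83.5 CPM in pro-lymphoid and 24.9 CPM in pro-myeloid libraries), Cd34 (308 and 117 CPM) and Flt3 (434 and 13.9 CPM, with 0.729 CPM in pro-myeloid replicate 2) were higher there, and the call of Kit was lost without pro-lymphoid replicate 6 (adjusted p = 0.0583). Hoxa9 (111 and 215 CPM), Meis1 (39.7 and 107.6 CPM) and Myb (307 and 635 CPM) were lower. Ptprc, which encodes the leukocyte antigen CD45, stood at 296 and 386 CPM and was called as lower under 4 of the 13 alternative settings, among them the one without pro-myeloid replicate 2.

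Some markers of other cell types moved with the conditions and others did not. All 9 granulocyte markers tested of 11 were lower in pro-lymphoid culture, and the list summed to 163 to 367 CPM in pro-lymphoid and 4701 to 9253 CPM in pro-myeloid libraries. Of 6 early lymphoid markers tested of 10, 4 were higher in pro-lymphoid culture and 2 were lower, with sums of 47.1 to 167 CPM against 0.885 to 5.70 CPM. The count of 6 was 3, all higher, without pro-myeloid replicate 4, and the lower calls, Vpreb1 and Igll1, were lost in 5 and 7 of the 12 settings that tested them. Of the higher calls, Il7r, Rag1 and Rag2 held under all 13 alternative settings, and Ly6d was lost in 4 of the 13. Ly6d stood at 1.03, 123.6 and 23.2 CPM in pro-lymphoid replicates 1, 5 and 6, and had 0 counts in the pro-myeloid libraries. The B-lineage factors Ebf1 and Pax5 did not pass the filter on low counts. Pax5 had 2, 2 and 0 counts in pro-lymphoid replicates 1, 5 and 6, and 1, 81 and 78 counts in pro-myeloid replicates 2, 3 and 4. Of the 4 megakaryocyte and mast cell markers tested of 6, 2 were lower in pro-lymphoid culture, at sums of 2.64 to 7.61 CPM against 11.8 to 33.5 CPM. The lower genes were the mast cell and basophil genes Mcpt8 (1.36 against 13.6 CPM) and Ms4a2 (0.0233 against 1.89 CPM). The megakaryocyte genes Gp1ba (0.917 and 1.47 CPM) and Itga2b (2.68 and 1.08 CPM) were not called. Of the 4 macrophage markers tested of 8, 1 was higher in pro-lymphoid culture (2 were called without pro-lymphoid replicate 1, 1 of them lower), and the sums overlapped, at 310 to 1031 CPM against 335 to 690 CPM. T and NK cell genes summed to at most 4.19 CPM against at least 13.4 CPM (2 tested of 8, with Nkg7 lower, Klrb1c higher but lost in 8 of the 12 settings that tested it, and Cd3e and Ncr1 at 0 everywhere). Nkg7 alone made up nearly all of the pro-myeloid sums, at 13.25, 21.49 and 41.2 CPM of 13.43, 21.84 and 41.54 CPM in replicates 2, 3 and 4. Stromal genes summed to 2.98 to 20.4 CPM against 7.28 to 19.0 CPM (2 lower of 4 tested of 12, with Col1a2, Col3a1, Dcn and Lum at 0 everywhere). The lower stromal genes were Col1a1, lost without pro-lymphoid replicate 5 or 6, and Fbln1, lost without pro-lymphoid replicate 1, pro-lymphoid replicate 6 or pro-myeloid replicate 4 (adjusted p up to 0.0775). Erythroid genes summed to 0.549 to 1.14 CPM against 0.989 to 1.11 CPM (1 tested of 6 and not called, with Hba-a1, Hbb-b1 and Car1 at 0 everywhere). The part of these cell states in the results below was not tested, and in bulk RNA fewer cells of a type and less RNA per cell cannot be told apart.

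Among the D cyclins, Ccnd1 was the member with the largest difference. It encodes cyclin D1, and lies on chromosome 7 at 144929931 to 144939925 on the minus strand (mm10), with 3796 exon bases counted. Ccnd1 stood at 433.7, 684.4 and 526.6 CPM in pro-lymphoid replicates 1, 5 and 6, and at 11.48, 5.77 and 5.79 CPM in pro-myeloid replicates 2, 3 and 4. Every pro-lymphoid library was far above every pro-myeloid one, and pro-myeloid replicate 2 was the highest of its group. The counts behind these values were 15994, 26175 and 22635 in pro-lymphoid and 441, 195 and 267 in pro-myeloid libraries, so the low level of the pro-myeloid libraries was measured well above the floor of 3 counts. The fitted log2 fold change was 6.16 ± 0.37 (SE), with a 95% interval of 5.28 to 7.04, which is a 71.4-fold higher level in pro-lymphoid culture (edgeR adjusted p = 8.43e-05). Of all genes tested, 116 (0.93%) were called with a larger rise. Without pro-myeloid replicate 2 the log2 fold change was 6.57. By TPM, a value per transcript length, Ccnd1 stood above 97.7% of all counted genes in pro-lymphoid and above 58.4% in pro-myeloid culture.

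Ccnd2 encodes cyclin D2 and lies on chromosome 6 at 127125709 to 127151048 on the minus strand. It stood at 221.3, 275.4 and 328.5 CPM in pro-lymphoid replicates 1, 5 and 6, and at 88.2, 114.2 and 95.1 CPM in pro-myeloid replicates 2, 3 and 4. The groups did not overlap, and the lowest pro-lymphoid library was above the highest pro-myeloid one. The log2 fold change was 1.47 ± 0.18 (95% interval 1.05 to 1.89), a 2.77-fold higher level (edgeR adjusted p = 0.00116).

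Ccnd3 encodes cyclin D3, which is known for its role in lymphocyte precursors and in red cell and granulocyte maturation. The gene lies on chromosome 17 at 47505051 to 47599688 on the plus strand. It stood at 303.3, 438.0 and 340.6 CPM in pro-lymphoid replicates 1, 5 and 6, and at 373.2, 435.4 and 450.9 CPM in pro-myeloid replicates 2, 3 and 4. The groups overlapped, with pro-lymphoid replicate 5 inside the pro-myeloid range. The difference on the log2 scale was -0.22 ± 0.17 with a 95% interval of -0.61 to 0.17 (edgeR adjusted p = 0.332), so no difference was detected, and the interval leaves out a rise or fall of 2-fold. Its exons share 358 bases with Bysl on the other strand. The libraries did not keep strand, so reads of these bases cannot be told apart.

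Taken per length, the 3 D cyclins together were higher in pro-lymphoid culture and were made up differently. Their summed level was 597, 765 and 634 TPM in pro-lymphoid replicates 1, 5 and 6, and 380, 378 and 401 TPM in pro-myeloid replicates 2, 3 and 4. The sums averaged 665 ± 88.4 TPM and 386 ± 12.9 TPM (SD, n = 3 each), a ratio of 1.72, and did not overlap. Ccnd1 made up 40.9 ± 1.62% of the sum in pro-lymphoid and 1.02 ± 0.545% in pro-myeloid libraries, Ccnd2 13.7 ± 2.58% and 8.39 ± 0.835%, and Ccnd3 45.4 ± 1.70% and 90.6 ± 0.976%. Without pro-myeloid replicate 2 the pro-myeloid share of Ccnd1 was 0.706%. Ccnd3 was thus the main D cyclin transcript of the pro-myeloid libraries, while Ccnd1 and Ccnd3 were at similar levels in the pro-lymphoid ones, with Ccnd1 at 0.851, 0.930 and 0.920 of the level of Ccnd3 in replicates 1, 5 and 6. On the CPM scale, which favours long transcripts, the share of Ccnd2 overlapped between the groups (23.4 ± 3.90% and 18.8 ± 1.67%), while those of Ccnd1 (46.1 ± 2.56% and 1.5 ± 0.799%) and Ccnd3 (30.5 ± 1.74% and 79.7 ± 1.78%) did not. With 3 against 3 libraries an exact permutation test allows no p below 0.1, so sums and shares are given without a test.

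**Figure D2:**
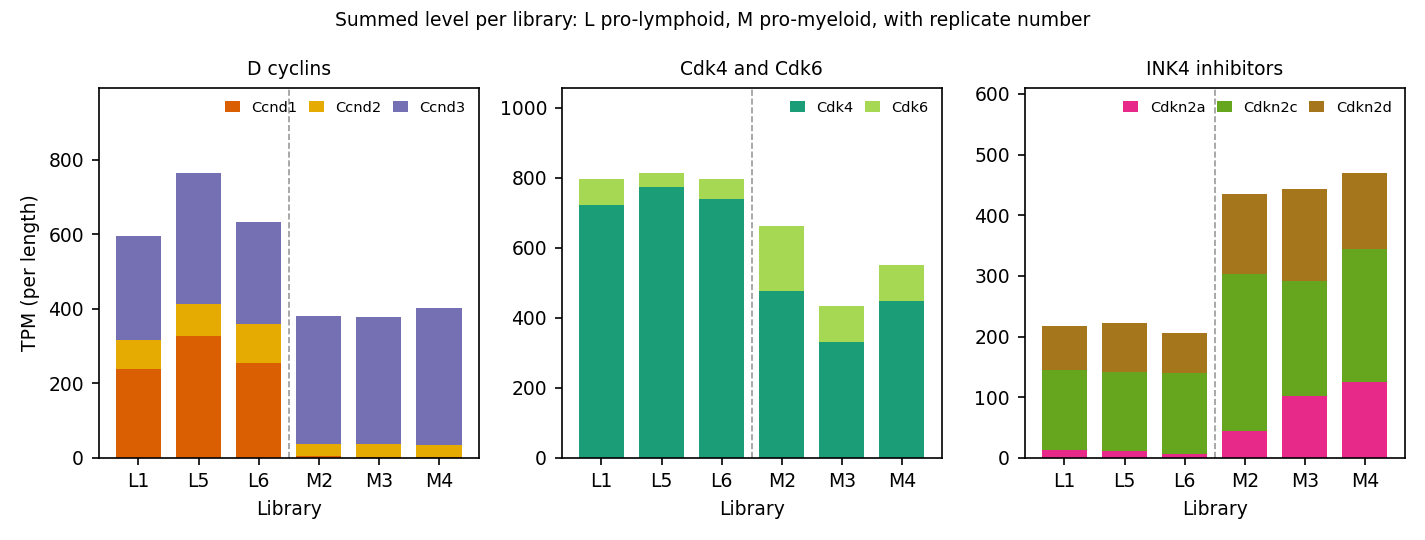
Summed TPM (level per transcript length) of the D cyclins, of Cdk4 and Cdk6, and of the INK4 genes, as stacked bars with 1 bar per library, pro-lymphoid (L1, L5 and L6) left of the dashed line and pro-myeloid (M2, M3 and M4) right of it. Ccnd1 fills 39.8 to 42.7% of the D cyclin bar in pro-lymphoid libraries and 0.701 to 1.65% in pro-myeloid libraries, and the INK4 bars are 206 to 222 TPM against 435 to 470 TPM high.

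The kinases moved in opposite directions. Cdk4, on chromosome 10 at 127063603 to 127067282 on the plus strand, stood at 466.8, 574.3 and 544.3 CPM in pro-lymphoid replicates 1, 5 and 6, and at 309.5, 252.9 and 326.8 CPM in pro-myeloid replicates 2, 3 and 4. The groups did not overlap. Its log2 fold change was 0.83 ± 0.15 (95% interval 0.49 to 1.18), a 1.78-fold higher level in pro-lymphoid culture (edgeR adjusted p = 0.00486). Cdk4 was the most abundant of the 10 transcripts by mean TPM in both conditions, at 745 ± 26.5 TPM in pro-lymphoid and 419 ± 76.5 TPM in pro-myeloid culture.

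Cdk6, on chromosome 5 at 3344312 to 3522225 on the plus strand, stood at 88.2, 54.0 and 76.5 CPM in pro-lymphoid replicates 1, 5 and 6, and at 223.3, 143.6 and 136.8 CPM in pro-myeloid replicates 2, 3 and 4. The groups did not overlap, and pro-myeloid replicate 2 was 1.59 times the mean of pro-myeloid replicates 3 and 4. The fitted log2 fold change was -1.20 ± 0.25 (95% interval -1.80 to -0.61), a 2.30-fold lower level in pro-lymphoid culture (edgeR adjusted p = 0.00974). Without pro-myeloid replicate 2 it was -0.94 (edgeR adjusted p = 0.0123). The TPM of Cdk4 was 9.71, 19.5 and 13.1 times that of Cdk6 in pro-lymphoid replicates 1, 5 and 6, and 2.54, 3.23 and 4.38 times in pro-myeloid replicates 2, 3 and 4. The lowest pro-lymphoid ratio was thus above the highest pro-myeloid one. Together the kinases summed to 802 ± 9.85 TPM in pro-lymphoid and 549 ± 114 TPM in pro-myeloid libraries (SD, n = 3 each).

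The promoters of the kinases are shown with the E-box, a word bound by the transcription factor Myc, of which Cdk4 is a textbook target. The windows run from 250 bases before to 50 bases after the transcription start, are taken from RefSeq (GRCm38.p6), and are written 5′ to 3′ on the strand of the gene, with the E-box CACGTG in capitals (this word reads the same on both strands). The Cdk4 window is chr10:127063285-127063584 and the Cdk6 window chr5:3343643-3343942, both on the plus strand. Both windows end before the first exon base counted (127063603 for Cdk4 and 3344312 for Cdk6). The RefSeq starts used here thus lie upstream of the counted exons.
Cdk4: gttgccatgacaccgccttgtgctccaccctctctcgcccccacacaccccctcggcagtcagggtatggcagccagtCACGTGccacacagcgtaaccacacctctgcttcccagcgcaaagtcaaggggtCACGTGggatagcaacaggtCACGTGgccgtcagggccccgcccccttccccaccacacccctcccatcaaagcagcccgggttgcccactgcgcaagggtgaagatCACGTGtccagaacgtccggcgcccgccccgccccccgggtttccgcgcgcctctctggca
Cdk6: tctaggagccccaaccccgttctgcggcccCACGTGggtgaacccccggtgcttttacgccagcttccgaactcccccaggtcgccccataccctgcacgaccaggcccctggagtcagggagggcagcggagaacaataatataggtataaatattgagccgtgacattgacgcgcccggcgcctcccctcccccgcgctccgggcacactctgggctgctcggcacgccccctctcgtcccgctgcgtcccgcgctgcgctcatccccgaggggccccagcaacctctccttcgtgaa
The Cdk4 window held the E-box 4 times and the Cdk6 window once. Over the 32851 RefSeq mouse promoter windows of the same length, 7.15% held at least 1 match, and 29 windows (0.0883%) held 3 or more. A match is a description of the letters and says nothing of binding in these cells. Whether Myc bears on the level of either kinase was not tested.

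Of the CIP/KIP inhibitors, Cdkn1b was lower in pro-lymphoid culture and Cdkn1a did not pass the test. Cdkn1b, on chromosome 6 at 134920401 to 134925525 on the plus strand, stood at 57.1, 61.8 and 57.7 CPM in pro-lymphoid replicates 1, 5 and 6, and at 95.6, 120.5 and 113.7 CPM in pro-myeloid replicates 2, 3 and 4. The pro-lymphoid libraries lay close together, and all were below every pro-myeloid one. The log2 fold change was -0.90 ± 0.12 (95% interval -1.19 to -0.61), a 1.87-fold lower level (edgeR adjusted p = 0.0018).

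Cdkn1a, a target gene of p53, lies on chromosome 17 at 29090986 to 29100722 on the plus strand. It stood at 147.0, 128.7 and 90.7 CPM in pro-lymphoid replicates 1, 5 and 6, and at 118.2, 216.4 and 205.5 CPM in pro-myeloid replicates 2, 3 and 4. Pro-myeloid replicate 2 lay inside the pro-lymphoid range, while pro-myeloid replicates 3 and 4 lay above all pro-lymphoid libraries. The difference on the log2 scale was -0.56 ± 0.27 (95% interval -1.19 to 0.07) and was not called (edgeR adjusted p = 0.144). Without pro-myeloid replicate 2 it was -0.79 ± 0.20 and was called (edgeR adjusted p = 0.0223), so that 1 library decided this call.

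The 3 INK4 genes among the members were lower in pro-lymphoid culture, by different amounts. Cdkn2a, on chromosome 4 at 89274473 to 89294619 on the minus strand, fell most. It stood at 7.19, 6.72 and 3.79 CPM in pro-lymphoid replicates 1, 5 and 6, and at 24.5, 65.2 and 76.7 CPM in pro-myeloid replicates 2, 3 and 4. Every pro-lymphoid library was below every pro-myeloid one, and pro-myeloid replicate 2 was the lowest of its group, with pro-myeloid replicates 3 and 4 at a mean 2.90 times as high. Its log2 fold change was -3.23 ± 0.47 (95% interval -4.34 to -2.13), a 9.41-fold lower level in pro-lymphoid culture (edgeR adjusted p = 0.00227). Of all genes tested, 588 (4.71%) were called with a larger fall. Without pro-myeloid replicate 2 the log2 fold change was -3.59 ± 0.28. Pro-myeloid replicate 2 also had the lowest granulocyte marker sum of its group (4701 CPM, against 6592 and 9253 CPM in pro-myeloid replicates 3 and 4). The part of that difference in the level of Cdkn2a was not tested.

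Cdkn2a holds a pair of transcripts with separate promoters, one for the INK4 protein p16Ink4a and one for p19Arf, an activator of the p53 pathway that shares exons but not its reading frame with p16Ink4a. The deposited counts are per gene, so they do not say which transcript was higher in pro-myeloid culture. Both RefSeq windows are shown, since they are the separate starts behind the single count. The window of the p16Ink4a start is chr4:89282143-89282442 and that of the p19Arf start chr4:89294570-89294869, both on the minus strand and written 5′ to 3′ on it, with the E2F words TTTCCCGC or TTTGGCGC, searched on both strands, in capitals.
Cdkn2a, p16Ink4a start: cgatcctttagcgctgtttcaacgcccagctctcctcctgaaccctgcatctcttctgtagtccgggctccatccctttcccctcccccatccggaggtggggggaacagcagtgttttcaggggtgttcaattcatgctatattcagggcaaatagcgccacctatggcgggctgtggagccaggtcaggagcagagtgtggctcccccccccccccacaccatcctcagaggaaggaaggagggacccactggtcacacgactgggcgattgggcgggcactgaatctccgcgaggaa
Cdkn2a, p19Arf start: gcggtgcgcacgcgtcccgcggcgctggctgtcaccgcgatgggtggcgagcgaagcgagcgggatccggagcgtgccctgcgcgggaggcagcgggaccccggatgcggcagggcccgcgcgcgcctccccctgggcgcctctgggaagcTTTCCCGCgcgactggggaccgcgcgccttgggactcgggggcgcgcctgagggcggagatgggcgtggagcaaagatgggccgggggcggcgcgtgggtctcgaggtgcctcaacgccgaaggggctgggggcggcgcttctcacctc
The p19Arf window held 1 E2F word and the p16Ink4a window none. Of the 32851 promoter windows, 1.56% held such a word. The G and C content was 77.0% in the p19Arf window and 60.3% in the p16Ink4a window. The other windows found for the members (12 in all, for 8 genes) held no E2F word. They held 1 further E-box, in 1 of the 2 Cdkn2c windows, and none of the 12 held the STAT word TTCNNNGAA, which 8.3% of all windows held.

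Cdkn2c encodes p18Ink4c and lies on chromosome 4 at 109660876 to 109665372 on the minus strand. It stood at 70.0, 79.8 and 80.4 CPM in pro-lymphoid replicates 1, 5 and 6, and at 138.0, 119.4 and 131.6 CPM in pro-myeloid replicates 2, 3 and 4. The groups did not overlap. The fitted log2 fold change was -0.76 ± 0.11 (95% interval -1.03 to -0.49), a 1.69-fold lower level (edgeR adjusted p = 0.00269).

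Cdkn2d encodes p19Ink4d, a protein unrelated to p19Arf in sequence, and lies on chromosome 9 at 21288464 to 21291209 on the minus strand. It stood at 44.7, 56.3 and 46.2 CPM in pro-lymphoid replicates 1, 5 and 6, and at 81.2, 108.5 and 86.5 CPM in pro-myeloid replicates 2, 3 and 4. The groups did not overlap. The log2 fold change was -0.91 ± 0.16 (95% interval -1.28 to -0.54), a 1.88-fold lower level (edgeR adjusted p = 0.00451).

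Per length, the 3 INK4 genes summed to 218, 222 and 206 TPM in pro-lymphoid replicates 1, 5 and 6, and to 435, 443 and 470 TPM in pro-myeloid replicates 2, 3 and 4. The pro-lymphoid sums were 0.479 of the pro-myeloid ones on average, and the groups did not overlap. The Cdkn2a part of these sums and shares takes in p19Arf transcripts, which the counts do not separate from those of p16Ink4a. Cdkn2c held the largest share in every library, at 61.3 ± 2.97% in pro-lymphoid and 49.7 ± 8.56% in pro-myeloid libraries, and its shares overlapped. The share of Cdkn2a was 6.04, 4.83 and 2.97% in pro-lymphoid replicates 1, 5 and 6, and 10.2, 22.9 and 26.5% in pro-myeloid replicates 2, 3 and 4, without overlap. Cdkn1a and Cdkn1b together summed to 163 ± 37.3 TPM in pro-lymphoid and 252 ± 42.0 TPM in pro-myeloid libraries, also without overlap, although pro-lymphoid replicate 1 (200.4 TPM) and pro-myeloid replicate 2 (203 TPM) were close.

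**Figure D3:**
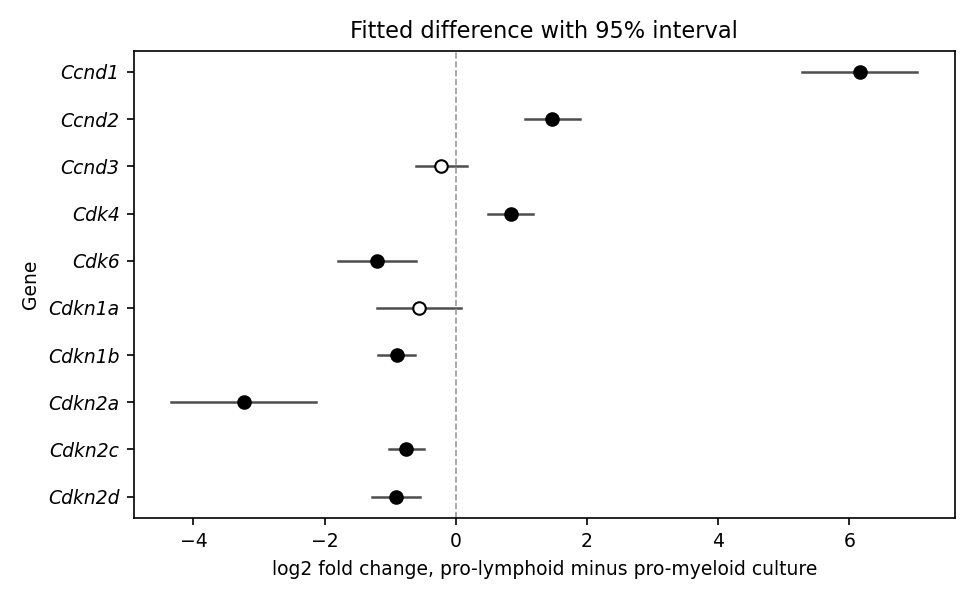
Fitted log2 fold change of each gene, pro-lymphoid minus pro-myeloid culture, with its 95% interval from the edgeR fit over 6 libraries (filled points passed at an adjusted p of 0.05, open points did not). Ccnd1, Ccnd2 and Cdk4 lie above 0, the 3 INK4 genes, Cdk6 and Cdkn1b lie below it, and the intervals of Ccnd3 and Cdkn1a include 0.

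By mean TPM, the order of the members in pro-lymphoid culture was Cdk4 (745), Ccnd3 (302), Ccnd1 (273), Cdkn2c (132), Cdkn1a (116), Ccnd2 (90.2), Cdkn2d (73.4), Cdk6 (56.9), Cdkn1b (46.6) and Cdkn2a (6.11 to 13.2 over the 3 libraries). Cdk4 stood above and Cdkn2a below all others in every pro-lymphoid library, and Ccnd1 did not overlap with Cdkn2c, while all other neighbours in the order overlapped. In pro-myeloid culture the order was Cdk4 (419), Ccnd3 (350), Cdkn2c (223), Cdkn1a (166), Cdkn2d (136), Cdk6 (131), Cdkn2a (90.2), Cdkn1b (86.0), Ccnd2 (32.3) and Ccnd1 (3.92). There Cdk4 and Ccnd3 overlapped, as did the neighbours between Cdkn1a and Cdkn1b, whereas Ccnd3 and Cdkn2c, Cdkn2c and Cdkn1a, Cdkn1b and Ccnd2, and Ccnd2 and Ccnd1 did not. Ccnd1 was the third of the 10 in pro-lymphoid culture and the last in pro-myeloid culture.

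The other genes of the pathway were described from lists and read off the same fit, by counts and medians, beside the 37.4% of all genes tested that were called (16.8% higher and 20.6% lower). Of 3 other CDK inhibitors, 1 was lower in pro-lymphoid culture (median log2 fold change -0.45, against 0 for all genes). It was Cdkn1c, which encodes the CIP/KIP protein p57. Cdkn1c had 0, 9 and 0 counts in pro-lymphoid replicates 1, 5 and 6, and 280, 176 and 507 counts in pro-myeloid replicates 2, 3 and 4 (edgeR adjusted p = 0.00351). In CPM this was 0.0784 ± 0.136 in pro-lymphoid and 7.83 ± 2.93 in pro-myeloid libraries. Cdkn2b, the INK4 gene next to Cdkn2a, was low in both conditions, at 0.916 ± 0.242 CPM and 1.14 ± 0.344 CPM (edgeR adjusted p = 0.54), and Cdkn3 stood at 12.2 and 16.6 CPM (edgeR adjusted p = 0.122). Mtap, the metabolic gene on the other side of this locus, was not called at 36.9 CPM in pro-lymphoid and 22.9 CPM in pro-myeloid libraries (edgeR adjusted p = 0.0521), and was called as higher in pro-lymphoid culture under 6 of the 13 alternative settings.

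Downstream of the kinases, 4 of 13 Rb and E2F genes were higher and 1 was lower in pro-lymphoid culture (median 0.46), a share of calls near that of all genes (37.4%). E2f3, an activating E2F, stood at 89.3 ± 13.9 CPM in pro-lymphoid and 29.9 ± 9.83 CPM in pro-myeloid libraries (edgeR adjusted p = 0.00336), and E2f2, another activating E2F, was lower at 80.2 ± 12.6 CPM against 180.1 ± 39.5 CPM (edgeR adjusted p = 0.00437). The repressive E2Fs E2f4 (149 against 94.6 CPM) and E2f6 (78.0 against 34.6 CPM) were higher. These 4 genes were called in the same direction under all 13 alternative settings. E2f1 was higher at 105 against 65.3 CPM, but not without pro-lymphoid replicate 6 or pro-myeloid replicate 4 (edgeR adjusted p up to 0.0778). The retinoblastoma gene Rb1 stood at 54.6 and 52.5 CPM and was not called.

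Of 8 genes of the G1/S transition, 1 was higher and 1 lower in pro-lymphoid culture (median 0.20). Cdc25a, a phosphatase that activates Cdk2, stood at 110.4, 129.9 and 124.4 CPM in pro-lymphoid replicates 1, 5 and 6, and at 84.7, 50.6 and 77.6 CPM in pro-myeloid replicates 2, 3 and 4 (edgeR adjusted p = 0.0208), and its call was lost without pro-lymphoid replicate 5, pro-lymphoid replicate 6 or pro-myeloid replicate 4 (adjusted p up to 0.0672). Mnat1, a subunit of the kinase that activates CDKs, was lower at 33.6 against 51.8 CPM, and its call was lost without any 1 of 5 libraries, pro-myeloid replicate 2 being the exception, and with upper-quartile scaling (adjusted p up to 0.103). Cdk2 (123 and 94.3 CPM) and Ccna2 (199 and 146.5 CPM) were not called. Cdk2 was called as higher with upper-quartile scaling, with DESeq2 and without pro-myeloid replicate 2 (adjusted p down to 0.0246).

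Among 11 genes of cyclin and inhibitor turnover, 4 were higher and 1 lower (median 0.23), against 37.4% called over all genes. Skp2, the ubiquitin ligase subunit that marks p27 for destruction, stood at 61.7 ± 8.61 CPM in pro-lymphoid and 27.5 ± 9.05 CPM in pro-myeloid libraries (edgeR adjusted p = 0.0126). Fbxo4, an F-box protein reported to mark cyclin D1 for destruction, was lower at 1.40 ± 0.470 CPM against 9.92 ± 3.56 CPM (edgeR adjusted p = 0.00211). Both were called under all 13 alternative settings. Among the 6 genes not called were Fbxo31 (51.1 and 41.8 CPM), Ambra1 (72.7 and 66.4 CPM) and Gsk3b (95.7 and 122.5 CPM). The list's count of 5 fell to 2 without pro-lymphoid replicate 5, pro-lymphoid replicate 6 or pro-myeloid replicate 3, and to 3 without pro-myeloid replicate 4, with Cks1b (171 against 115 CPM) and Cdc34 (196 against 153 CPM) among the calls lost.

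S and M phase markers were read beside the members, since the proportion of cycling cells bears on many of these transcripts. Of the 18 markers, 5 were called, all higher in pro-lymphoid culture (median 0.48), against 37.4% of all genes called and 16.8% called as higher. The groups did not overlap for 10 markers, all higher there, against 53.6% of all genes in either direction and 26.4% higher. The summed level of the markers was 6298, 6815 and 6896 CPM in pro-lymphoid replicates 1, 5 and 6, and 5847, 3559 and 5003 CPM in pro-myeloid replicates 2, 3 and 4. Pro-myeloid replicate 2 was thus nearest to the pro-lymphoid libraries. Mcm6, a subunit of the replicative helicase, stood at 651 ± 44.7 CPM and 409 ± 53.6 CPM (edgeR adjusted p = 0.00944). The related subunits Mcm7 (546 against 311 CPM), Mcm2 (469 against 271 CPM) and Mcm5 (534 against 314 CPM) were also called. The count of 5 was 11 without pro-myeloid replicate 2, 3 without pro-myeloid replicate 4, and 1 without either pro-lymphoid replicate 5 or 6. The part of the proportion of cycling cells in the levels of the members was not tested.

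**Figure D4:**
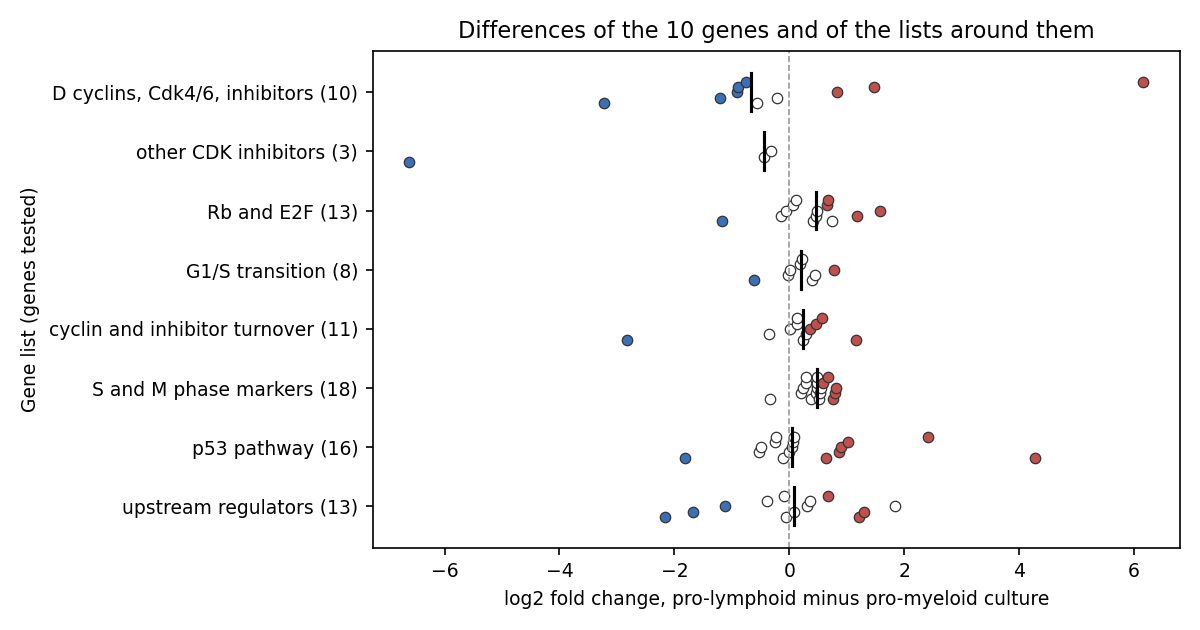
Log2 fold change of each tested gene, pro-lymphoid minus pro-myeloid culture, for the 10 members and the lists around them, with red points called as higher, blue points called as lower, open points not called, and a bar at each median. The members spread from -3.23 to 6.16, while the 18 S and M phase markers lie between -0.33 and 0.81.

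The p53 pathway was read beside Cdkn1a, which p53 induces, and Cdkn2a, whose product p19Arf stabilises p53. Of 16 genes tested of 18, 6 were higher and 1 was lower in pro-lymphoid culture (median 0.05, against 37.4% called over all genes). The higher genes included Bbc3 (46.2 ± 5.94 CPM against 22.8 ± 4.76 CPM, edgeR adjusted p = 0.00626) and Bax (213 ± 17.9 CPM against 137 ± 14.2 CPM, edgeR adjusted p = 0.00765), which promote cell death, and the kinase gene Plk2 (2.56 ± 0.647 CPM against 0.479 ± 0.145 CPM, edgeR adjusted p = 0.0037). Eda2r, a receptor gene, had 45 counts in all pro-lymphoid libraries together against 2 in the pro-myeloid ones (ratio 23.2, 95% counting interval 6.06 to 197). Bbc3, Bax and Plk2 were called in the same direction under all 13 alternative settings, and Eda2r under the 12 that tested it. The other higher genes were Trp53 itself (304 against 163.5 CPM, edgeR adjusted p = 0.0179) and Zmat3 (56.7 against 31.3 CPM, edgeR adjusted p = 0.0231). Their calls were lost in 3 and 2 of the 13 settings. Among the 9 genes not called were the p53 targets Mdm2 (90.3 and 90.2 CPM), Aen (76.1 and 73.1 CPM) and Ccng1 (198 and 236 CPM). The lower gene was Fas, at 2.16 ± 0.866 CPM against 7.6 ± 3.13 CPM (edgeR adjusted p = 0.0152). Its call was lost without pro-lymphoid replicate 5 (edgeR adjusted p = 0.0531). Without pro-myeloid replicate 2, 9 genes of the list were called, 6 higher and 3 lower.

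Of 13 upstream regulators tested of 14, 3 were higher and 3 lower (median 0.08). Myc stood at 306, 301 and 348 CPM in pro-lymphoid replicates 1, 5 and 6, and at 139.7, 82.9 and 163.5 CPM in pro-myeloid replicates 2, 3 and 4, without overlap (log2 fold change 1.31 ± 0.24, edgeR adjusted p = 0.00611). Foxo1, a factor known to activate Cdkn1b, was lower at 6.70 ± 0.944 CPM against 30.1 ± 5.10 CPM (edgeR adjusted p = 0.000406). The related genes Foxo3 (45.3 and 48.5 CPM) and Foxo4 (29.8 and 31.0 CPM) were not called. Bcl6 was lower at 16.6 against 36.1 CPM (edgeR adjusted p = 0.0161), but not without pro-lymphoid replicate 5 or 6. Known regulators of the chromatin at Cdkn2a also differed. Cbx7, a Polycomb protein that represses the locus, stood at 38.2 ± 7.42 CPM in pro-lymphoid and 16.5 ± 2.97 CPM in pro-myeloid libraries (edgeR adjusted p = 0.00436), and Bmi1, another such protein, at 63.0 ± 9.78 CPM and 39.5 ± 3.87 CPM (edgeR adjusted p = 0.0122). Kdm6b, a demethylase that removes the Polycomb mark, was lower at 28.0 ± 1.14 CPM against 89.2 ± 24.9 CPM (edgeR adjusted p = 0.00109). Myc, Foxo1, Cbx7, Bmi1 and Kdm6b were called in the same direction under all 13 alternative settings. Whether any of these regulators bears on Cdk4, Cdkn1b or Cdkn2a in these cells was not tested.

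For the 4 members with a call and a difference of at least 2-fold, the genes with the most similar pattern were taken from the distance between log2 CPM values centred on the mean of the 6 libraries. Nearest to Ccnd1 were Epb4.1l4b (distance 0.6), F2r (0.694) and Stap1 (0.783). Nearest to Ccnd2 were Med7 (0.223), Unc119b (0.372) and Kdelc2 (0.377). Nearest to Cdk6 were Itgav (0.275), Tbc1d9b (0.289) and Zbtb38 (0.3), and nearest to Cdkn2a were Ttc25 (0.296), Serpinf1 (0.635) and Hfe (0.712). All 12 differed between the conditions in the direction of their member, which the measure favours, and the 6 libraries are the only points behind it.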

How the data were processed

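The authors deposited 1 table of raw read counts per gene for 6 libraries. Per the labels' protocols, Trizol-extracted RNA was poly(A)-selected, and libraries from a NEBNext Ultra kit, a kind that loses strand, were read single-end on a HiSeq instrument. Per the file headers, featureCounts 1.5.1 counted primary alignments over mm10 exons without strand. Trimmomatic, Bowtie, TopHat and DESeq2 are also named, per the submitters' processing notes, without their settings. Counts of overlapping genes or of alternative transcripts cannot be separated.

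From the deposited counts, edgeR 4.0.16 (R 4.3.3) fitted all genes left by filterByExpr, with TMM scaling, a two-sided quasi-likelihood F test and Benjamini-Hochberg adjustment over 12477 genes at 0.05. Fold changes are given as log2 of pro-lymphoid over pro-myeloid culture, and their SE and 95% interval come from the F statistic. CPM are TMM-scaled. TPM use the exon length of the table. Libraries held 34972488 to 46724382 counts. Since reads carry no molecular identifiers, limits from counts take in counting error alone. The replicate numbers of the groups do not overlap, so libraries were not paired. No replicate pair agreed within sampling noise (chi-square divided by its degrees of freedom 39.8 to 206).

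Members and gene lists were chosen with earlier results of these data known, so counts over them are descriptions and no list was tested. All 10 members were named, and of each list the 4 tested genes with the smallest adjusted p and the genes removed by the filter. Other list genes in the text (E2f1, Rb1, Kit, Myb, Ptprc, Bmi1, Fas, Ly6d and Igll1) were named after their values were seen. So were Foxo3, Foxo4, Bcl6, Trp53, Zmat3, Mdm2, Aen, Ccng1, Fbxo31, Ambra1 and Gsk3b. For members called at 2-fold or more, the 3 genes nearest in pattern were named. The alternatives tried were RLE, upper-quartile or no scaling, no filter or 1 CPM in 3 libraries, DESeq2 1.42.0, limma-voom (limma 3.58.1), a 2-fold minimum, and each library left out. Adgre1 was counted as Emr1. Promoter windows are from RefSeq (GRCm38.p6), and 8 of 10 members matched. Scripts were tested on simulated counts.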

Additional observations from a re-analysis of the deposited data

How the results depend on the processing

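The count of members called was 8 under every scaling, filter and test tried (RLE, upper-quartile and no scaling, no filter, 1 CPM in 3 libraries, DESeq2 and limma-voom), and 8 to 9 with 1 library left out, the ninth being Cdkn1a without pro-myeloid replicate 2. With a 2-fold minimum it was 4, and the count over all genes was 2535 in place of 4665. Over all genes the count was 4324 to 5432 under the other scalings, filters and tests, and 2893 (without pro-lymphoid replicate 6) to 5224 (without pro-myeloid replicate 2) with 1 library left out. Over the 13 alternatives other than the 2-fold minimum, the 8 called members kept their direction and their call. The least secure were Cdk6 (log2 fold change -1.36 to -0.94, adjusted p up to 0.0384), Cdkn2d (-1.01 to -0.78, up to 0.0263) and Cdk4 (0.73 to 0.92, up to 0.0251). Ccnd1 ranged from 5.97 to 6.57, Ccnd2 from 1.33 to 1.61, Cdkn2a from -3.59 to -2.92, Cdkn1b from -0.99 to -0.83, Cdkn2c from -0.81 to -0.69, Ccnd3 from -0.38 to -0.11 and Cdkn1a from -0.79 to -0.38. The cause of these changes was not tested. Upper-quartile scaling and DESeq2 each called 8 of 18 S and M phase markers, against 5. No paired analysis was possible because the groups share no replicate number. Each member had at least 163 counts per library.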

Other observations

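Some genes of the lists were too low in most libraries to be tested. Perp, a membrane protein gene induced by p53, had 0 counts in all 3 pro-lymphoid libraries, and stood at 0.0260, 0.533 and 7.76 CPM in pro-myeloid replicates 2, 3 and 4. Its 377 pro-myeloid counts lay mostly in replicate 4. Mycn, a relative of Myc, stood at 0.0271, 0.0261 and 0.0931 CPM in pro-lymphoid replicates 1, 5 and 6 and had 0 counts in the pro-myeloid libraries. Gdf15, a p53 target that encodes a secreted protein, averaged 0.135 CPM in pro-lymphoid and 0.205 CPM in pro-myeloid libraries, with overlap.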
